A study of Rattus norvegicus with 30 samples.

Results

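Voltage-gated calcium and sodium channel genes were taken as every gene in the deposited count table whose symbol begins with Cacna, Cacnb, Cacng or Scn followed by a digit and whose counts sum to at least 300 over all libraries. Of 40 such symbols, 35 passed this minimum, among 17455 genes in the table. They comprise 9 genes for pore-forming subunits of calcium channels, 3 for alpha-2-delta subunits, 4 for calcium channel beta subunits and 7 of the gamma family, with 8 for sodium channel pores and 4 for sodium channel beta subunits. The 5 below the minimum were Cacna2d4 with a summed count of 164, Cacna1f with 149, Scn10a with 73, Scn11a with 25 and Cacng1 with 13. Just above it were, among others, Scn7a with 487, Cacna1s with 569 and Cacng6 with 773. All 35 members also passed the filter on low counts and entered the tests.

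The counts come from 30 polyA-selected libraries of dorsal hippocampus, prepared from snap-frozen tissue of TgF344-AD rats, labelled alzheimer, and of wildtype rats, fed a western diet or standard chow. TgF344-AD rats carry transgenes with mutations of familial Alzheimer's disease, human APP among them, driven by the mouse prion promoter, so that the transgenes are not limited to 1 cell type. The wildtype groups carry no transgene, and the labels give neither the ages of the animals nor the length of the diet. Replicate numbers are the running numbers of the libraries, and the labels do not state that each library is a separate animal: p-values reflect how libraries vary, which may be technical.

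The 4 alzheimer groups were female_alzheimer_western (replicates 11, 18 and 21), female_alzheimer_chow (10, 14, 16 and 19), male_alzheimer_western (1, 6, 23 and 28) and male_alzheimer_chow (3, 8, 25 and 30). The 4 wildtype groups were female_wildtype_western (replicates 12, 17 and 22), female_wildtype_chow (9, 13, 15 and 20), male_wildtype_western (2, 5, 24 and 27) and male_wildtype_chow (4, 7, 26 and 29). Every group held libraries of both labelled cohorts, 14 libraries in cohort 1 and 16 in cohort 2.

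Voltage-gated channels open when the membrane depolarises: sodium channels carry the upstroke of the action potential, and calcium channels turn the electrical signal into calcium entry that triggers transmitter release, dendritic spikes and gene expression. Each channel is built around 1 large pore-forming subunit, which sets its voltage range and drug sensitivity. Many, though not all, also have smaller auxiliary subunits, which set how many channels reach the membrane and how they gate. In the hippocampus the P/Q-type, N-type and R-type calcium channels serve transmitter release, L-type channels serve signalling to the nucleus, T-type channels open near the resting potential, and most gamma subunits act as partners of AMPA-type glutamate receptors.

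Libraries held 13.9 to 31.4 M counts (M stands for mega; median 17.8 M), of which the 35 members took 0.540% to 0.597%. App, the gene that the transgene copies, stood at 3137 to 3398 CPM (counts per M of library, after adjustment of library sizes) in alzheimer libraries and at 1548 to 1782 CPM in wildtype libraries, so all 30 libraries stood on the side of their genotype label. Of the markers of the tissue, the neuronal genes Snap25, Syt1 and Stmn2 had medians of 2780, 646 and 568 CPM, and the CA1 genes Wfs1 and Mpped1 of 798 and 350 CPM, whereas the CA1 gene Fibcd1 was at 0.495 CPM. Male_alzheimer_chow replicate 30 and female_wildtype_chow replicate 20 stood apart in genes of the choroid plexus, the tissue that makes cerebrospinal fluid, with mean log2 CPM of 2.11 and 1.63, while male_alzheimer_chow replicate 3, the next highest at 1.03, was close to the rest. The calls of the channel genes named below are also given without these 3 libraries, whereas those of partner and marker genes are given with all libraries. Fewer cells of a type and less RNA per cell cannot be told apart in such tissue libraries.

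Of the 35 members, 28 had a median of at least 10 CPM. The other 7 included Cacna1s and Scn4a, the pores of skeletal muscle, Scn9a of peripheral sensory neurons, the atypical sodium channel gene Scn7a, and the gamma genes Cacng5 and Cacng6. The medians of these 6 lay between 0.932 CPM for Scn7a and 5.21 CPM for Cacng5. Levels are not compared between genes here, since the counts were not divided by transcript length.

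The calcium pore genes at 10 CPM or more were Cacna1a (P/Q type), Cacna1b (N type), Cacna1e (R type), Cacna1c and Cacna1d (L type), and Cacna1g, Cacna1h and Cacna1i (T type). Among the sodium pore genes, Scn1a, known above all from fast-spiking interneurons, Scn2a and Scn8a of the axon initial segment, and Scn3a, which in rodents is most abundant around birth, passed 10 CPM. The auxiliary genes at 10 CPM or more included Cacna2d1, Cacna2d2, Cacna2d3, Cacnb1 to Cacnb4, Cacng2, Cacng3, Cacng4, Cacng7, Cacng8, Scn2b, Scn3b and Scn4b. The coefficient of variation over all libraries of these 28 genes had a median of 7.33% and ran from 4.52% for Cacnb1 to 14.5% for Cacna1e. Over all 35 members the median was 8.58%, against 8.71% over the 12547 genes tested, with genes under 10 CPM included in both. Cacna1e was thus the most variable of the 28, with 122 CPM in its lowest library, a median of 174 CPM and 216 CPM in its highest.

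Group means of the 28 genes lay close together. The highest of the 8 group means was 1.06 to 1.34 times the lowest, with a median ratio of 1.16. The same 2 groups stood at the ends for many pore genes: male_wildtype_western had the lowest mean in 13 of the 17 pore genes, and female_alzheimer_western the highest in 10 of 17. Over all genes tested, male_wildtype_western was lowest in 13.5% and female_alzheimer_western highest in 14.2%. Among the 18 auxiliary genes, male_wildtype_western was lowest in 5 and female_alzheimer_western highest in 3, and female_alzheimer_western was the lowest group for 3 of the 4 sodium beta genes. These ranks describe group means and were not tested.

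The promoter sequences below are shown because the genes were called in a comparison. RefSeq promoter entries, 250 bases before to 50 after the gene's start in the rat assembly GRCr8, were found for 24 of the 35 members and for 3 of the 6 called ones. Capitals mark matches to the motifs listed after them, on either strand. The entry of Cacna1b lies at chr3:27944236-27944535 on the minus strand, that of Scn3a at chr3:70666149-70666448 on the minus strand, and that of Scn4b at chr8:54343623-54343922 on the plus strand.
Cacna1b: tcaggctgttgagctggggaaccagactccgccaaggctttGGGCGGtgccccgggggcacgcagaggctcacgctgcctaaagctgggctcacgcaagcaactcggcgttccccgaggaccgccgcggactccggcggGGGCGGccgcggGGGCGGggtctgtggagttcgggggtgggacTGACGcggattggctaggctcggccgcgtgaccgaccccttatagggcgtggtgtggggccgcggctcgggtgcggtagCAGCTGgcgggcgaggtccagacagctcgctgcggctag
Scn3a: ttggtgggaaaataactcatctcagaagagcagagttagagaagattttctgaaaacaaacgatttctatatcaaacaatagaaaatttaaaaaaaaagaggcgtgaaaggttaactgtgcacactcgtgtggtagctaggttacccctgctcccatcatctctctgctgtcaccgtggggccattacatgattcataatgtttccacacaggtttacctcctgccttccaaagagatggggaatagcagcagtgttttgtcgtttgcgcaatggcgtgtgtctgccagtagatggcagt
Scn4b: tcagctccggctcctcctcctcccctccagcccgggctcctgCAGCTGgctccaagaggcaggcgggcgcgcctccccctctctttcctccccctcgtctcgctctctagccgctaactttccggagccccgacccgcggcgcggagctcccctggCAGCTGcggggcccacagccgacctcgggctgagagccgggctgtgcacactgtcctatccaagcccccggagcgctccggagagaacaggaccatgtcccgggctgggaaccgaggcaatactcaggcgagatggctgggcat

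The Cacna1b promoter had a GC content of 72% and 34 CpG pairs, that of Scn4b 70% and 24 pairs, and that of Scn3a 43.3% and 7 pairs, against medians of 52.3% and 7 pairs over all 27457 promoters. Cacna1b held 3 matches to GGGCGG, the core of an Sp1 site, 1 to TGACG, the core of a cAMP response element, and 1 to the E-box CAGCTG. Scn4b held 2 matches to CAGCTG and Scn3a none to any motif searched, which also included TATAAA and CAGCACC, part of the element of the neuronal repressor REST. The motifs do not overlap each other. GGGCGG was found in 13 of the 24 member promoters and in 34.9% of all promoters, CAGCTG in 7 and 15.1%, TGACG in 3 and 22%, TATAAA in 2 and 14.3%, and CAGCACC in 1 and 6.91%. A match describes the letters of this window and is no evidence of binding. Cacnb4 and Cacna1g are named only.

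The first comparison asks what differs in the TgF344-AD hippocampus. In alzheimer relative to wildtype libraries, averaged over sex and diet, Cacnb4, Scn3a and Cacna1b rose and Scn4b fell, each by less than 0.15 log2. All 8 sodium pore genes and 8 of the 9 calcium pore genes were on the higher side, whereas 3 of the 4 sodium beta genes were on the lower side. Of the 35 members, 5 were called at an adjusted p under 0.05 (edgeR's quasi-likelihood test, Benjamini-Hochberg over all genes tested), against 8.03% of all genes tested, and 17 had an unadjusted p under 0.05, against 22.3%. By direction, 3 members were called higher, against 4.14% of all genes, and 2 lower, against 3.89%. DESeq2 and limma-voom called 7 members each, 5 higher and 2 lower.

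Cacnb4 encodes a beta subunit that helps to bring calcium channel pores to the membrane, and its loss causes epilepsy and ataxia in mice. It had 41.5 CPM in the lowest alzheimer library, a median of 47.0 and 51.1 CPM in the highest, against 36.98, 41.8 and 55.4 CPM in wildtype libraries. The ranges overlapped, with the highest value of all in 1 wildtype library, male_wildtype_chow replicate 7. Cacnb4 averaged 46.8 ± 2.78 CPM in alzheimer libraries and 42.6 ± 4.14 CPM in wildtype ones (SD, n = 15 each), a log2 fold change of 0.14 ± 0.037 (standard error, adjusted p = 0.0148, edgeR), and it was higher in 14 of 15 alzheimer libraries than the mean of the wildtype libraries of the same sex and diet. The other beta genes did not pass the test, with log2 fold changes of -0.013 for Cacnb1, 0.045 for Cacnb2 and -0.013 for Cacnb3.

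Scn3a had 48.1 CPM in the lowest alzheimer library, a median of 56.7 and 61.7 CPM in the highest, against 46.1, 50.9 and 58.7 CPM in wildtype libraries. The ranges overlapped over most of their width, and the alzheimer median lay above the wildtype one. Scn3a averaged 56.7 ± 4.01 CPM in alzheimer libraries and 52.0 ± 4.15 CPM in wildtype ones (SD, n = 15 each), a log2 fold change of 0.12 ± 0.039 (adjusted p = 0.0427, edgeR), higher in 14 of 15 libraries. Its neighbour on the chromosome, Scn2a, had a log2 fold change of 0.063 ± 0.024 (adjusted p = 0.108). Scn8a was just outside the call, at 0.12 ± 0.040 (adjusted p = 0.0581), and Scn1a had 0.097 ± 0.039 (adjusted p = 0.127). The median log2 fold change of the 8 sodium pore genes was 0.12, against 0.0020 over all genes tested.

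Cacna1b, the pore of the N-type channel found at presynaptic terminals, had 140.5 CPM in the lowest alzheimer library, a median of 158 and 171 CPM in the highest, against 133, 151 and 175 CPM in wildtype libraries. The ranges overlapped, and the highest value was again in male_wildtype_chow replicate 7. Cacna1b averaged 159 ± 7.67 CPM in alzheimer libraries and 149.6 ± 10.9 CPM in wildtype ones (SD, n = 15 each), a log2 fold change of 0.088 ± 0.028 (adjusted p = 0.0437, edgeR), higher in 12 of 15 libraries. Of the other presynaptic types, the R-type gene Cacna1e had the largest estimate among calcium pore genes, 0.17 ± 0.060 (adjusted p = 0.0677), and the P/Q-type gene Cacna1a had 0.033 ± 0.027 (adjusted p = 0.517). The L-type gene Cacna1d had 0.11 ± 0.038 (adjusted p = 0.061) and Cacna1c 0.092 ± 0.041 (adjusted p = 0.164). The T-type genes had log2 fold changes between 0.0085 for Cacna1h and 0.035 for Cacna1i, and the median of the 9 calcium pore genes was 0.035.

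Scn4b encodes the beta subunit known for resurgent sodium current in fast-firing neurons. It had 46.4 CPM in the lowest alzheimer library, a median of 53.0 and 61.9 CPM in the highest, against 49.3, 58.0 and 62.0 CPM in wildtype libraries. The ranges overlapped almost wholly, while the medians stood apart. Scn4b averaged 53.9 ± 3.48 CPM in alzheimer libraries and 58.0 ± 3.37 CPM in wildtype ones (SD, n = 15 each), a log2 fold change of -0.11 ± 0.029 (adjusted p = 0.0163, edgeR), lower in 14 of 15 libraries. Scn2b, the neighbour of Scn4b on the chromosome and the other beta subunit that binds the pore by a disulfide bond, had 0.045 ± 0.027 (adjusted p = 0.339), and Scn3b had -0.058 ± 0.022 (adjusted p = 0.106). The median over the 4 sodium beta genes was -0.083.

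Of the 7 gamma genes none was called, and their median log2 fold change was -0.034. Cacng4, Cacng2 and Cacng3 had the lowest estimates, -0.098 ± 0.042 for Cacng4 (adjusted p = 0.151), -0.082 ± 0.033 for Cacng2 (adjusted p = 0.122) and -0.062 ± 0.030 for Cacng3 (adjusted p = 0.214). Cacng7 was at 0.011 and Cacng8 at 0.0099. The alpha-2-delta genes, whose proteins bind gabapentin in the case of Cacna2d1 and Cacna2d2, had 0.069 ± 0.031 for Cacna2d1, 0.091 ± 0.052 for Cacna2d2 and 0.021 ± 0.025 for Cacna2d3. Over all 35 members, 25 were on the higher side, and the median was 0.045.

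**Figure D1:**
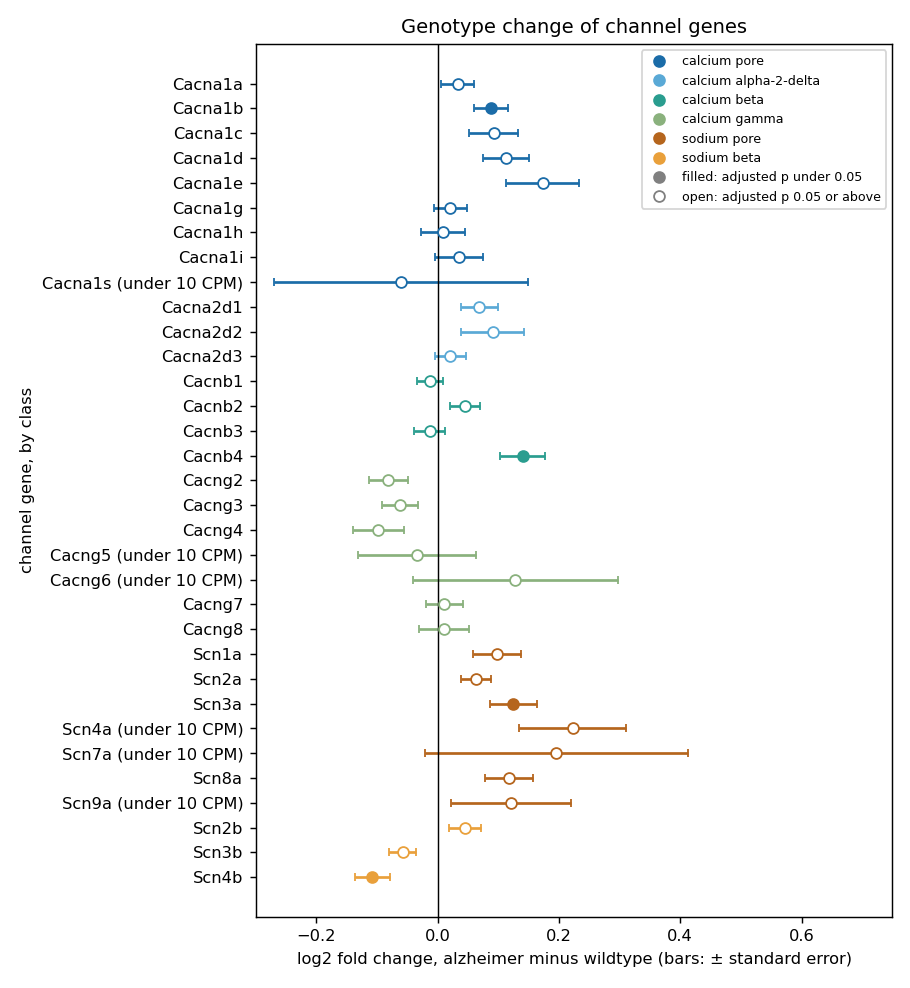
Log2 fold change of the channel genes named here, alzheimer minus wildtype, with its standard error, by class. The called genes shown lie between -0.11 (Scn4b) and 0.14 (Cacnb4), and the sodium pore genes shown all lie right of 0.

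**Figure D2:**
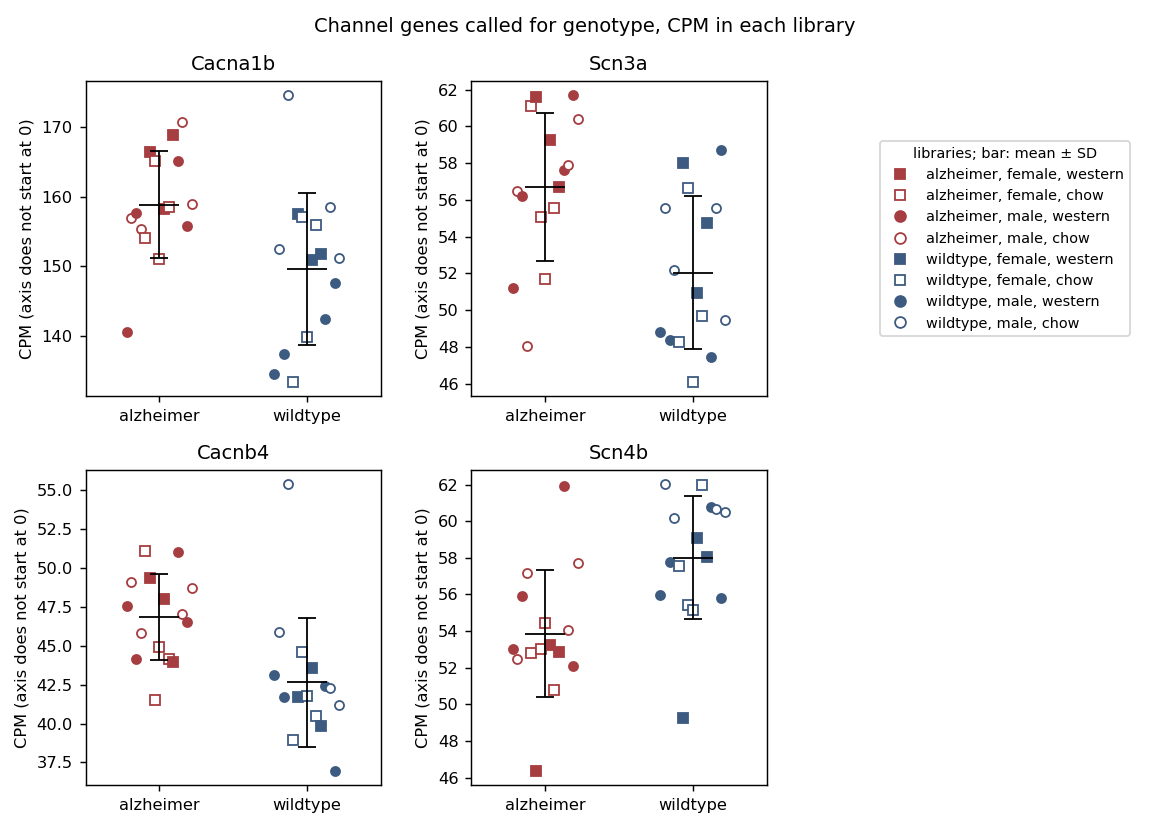
CPM of Cacna1b, Scn3a, Cacnb4 and Scn4b, called for genotype, in each of the 15 alzheimer and 15 wildtype libraries, with mean and SD (y axes do not start at 0). The ranges of the genotypes overlap for every gene, and the means differ in the direction of the call.

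The 5 calls did not rest alike on all libraries, and 3 to 8 members were called when 1 library was left out. In cohort 1 alone no member was called, with 6 members at an unadjusted p under 0.05, and in that cohort each female western group is a single library. The estimates of Cacnb4, Scn3a, Cacna1b and Scn4b kept their signs there, from -0.10 for Scn4b to 0.10 for Cacnb4, and in cohort 2 alone they ran from -0.11 for Scn4b to 0.19 for Cacnb4. In cohort 2 alone 7 members were called, but of these 4 genes Cacnb4 alone was (adjusted p = 0.0160, edgeR), with an adjusted p of 0.0536 for Scn3a, 0.0736 for Cacna1b and 0.138 for Scn4b. Without the 3 libraries highest in choroid plexus markers Cacna1b stayed called, and the adjusted p was 0.0637 for Cacnb4, 0.0655 for Scn4b and 0.161 for Scn3a. The Cacna1b call was lost when any 1 of replicates 2, 3, 4, 5, 6, 9, 11, 14, 15, 17, 19, 21, 22, 23, 24, 25, 26, 28 and 29 was left out (adjusted p 0.0513 to 0.0909). The Scn3a call was lost without any 1 of replicates 2, 3, 5, 6, 7, 9, 10, 11, 14, 15, 17, 18, 19, 20, 22, 23, 24, 25, 28, 29 and 30 (adjusted p 0.0511 to 0.098). Cacnb4 and Scn4b stayed called without any 1 of the 30 libraries.

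Within the levels of diet and sex each side of the same comparison held 7 or 8 libraries. On the western diet 1 member was called, Cacnb4, against 3.17% of all genes tested, and 13 had an unadjusted p under 0.05, against 16.8%. Cacnb4 had 43.9 CPM in the lowest alzheimer library on western diet, a median of 47.6 and 51.0 CPM in the highest, against 36.98, 41.7 and 43.6 CPM in the wildtype libraries on that diet. The 7 alzheimer libraries thus all stood above the 7 wildtype ones. The log2 fold change was 0.19 ± 0.055 (adjusted p = 0.0472, edgeR), higher in 7 of 7 libraries. The call was lost (adjusted p 0.0507 to 0.113) without any 1 of replicates 1, 2, 4, 5, 11, 12, 13, 15, 16, 17, 18, 19, 20, 22, 23, 25, 26, 27 and 28, and without the 3 libraries highest in choroid plexus markers (0.0582). Next in order were Cacna1d at 0.17 ± 0.056 and Cacna1b at 0.12 ± 0.041 (adjusted p = 0.094 for both).

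On chow no member was called by edgeR, DESeq2 or limma-voom, against 0.901% of all genes, and 6 had an unadjusted p under 0.05 in edgeR (11.3% of all genes) and 7 in either other tool. The smallest p on chow included those of Scn4b (-0.13 ± 0.039, adjusted p = 0.129) and Cacng2 (-0.12 ± 0.044, adjusted p = 0.275). In females no member was called by edgeR or DESeq2 and 1 by limma-voom, against 2.57% of all genes in edgeR, and 14 had an unadjusted p under 0.05 (16.2% of all genes), 13 in DESeq2 and 14 in limma-voom. The smallest p in females included those of Scn1a (0.18 ± 0.057, adjusted p = 0.0981) and Scn3b (-0.097 ± 0.032, adjusted p = 0.106). In males no member was called by any of the 3 tools, against 1.25% of all genes, and 7 had an unadjusted p under 0.05 (13.1% of all genes), 7 in DESeq2 and 11 in limma-voom. There the smallest p included those of Cacna1d (0.14 ± 0.052, adjusted p = 0.211) and Cacnb4 (0.13 ± 0.051, adjusted p = 0.251). Single libraries made calls appear in these strata: in males Cacnb4 without male_wildtype_chow replicate 7 (0.17, adjusted p = 0.0452), and in females Scn3b without female_alzheimer_chow replicate 14 (-0.12, adjusted p = 0.0348).

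Whether the genotype difference itself depended on diet or sex was tested by interaction terms. For genotype by diet no member was called, against 0% of all genes, and 3 had an unadjusted p under 0.05 (3.55% of all genes), 3 in DESeq2 and 3 in limma-voom, with no call in either. Cacna1g had the smallest p, with a genotype difference larger on western than on chow by 0.18 ± 0.055 on the log2 scale (unadjusted p = 0.00236, edgeR), followed by Cacnb2 (0.11 ± 0.050) and Cacng6 (-0.69 ± 0.34). For genotype by sex no member was called by any of the 3 tools, against 0% of all genes, and 0 had an unadjusted p under 0.05 in edgeR and in DESeq2, against 4.21% of all genes in edgeR, and 1 in limma-voom. The smallest p were those of Scn1a (0.16 ± 0.079), Cacng3 (-0.12 ± 0.060) and Cacna1i (-0.15 ± 0.080).

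The diet comparison differed between the sexes for the T-type calcium channel gene Cacna1g, whose pore is known in rodents for low-threshold burst firing. The diet difference, western minus chow, was larger in females than in males by 0.24 ± 0.055 on the log2 scale (adjusted p = 0.0192, edgeR). It was the only member called in this interaction, against 1.23% of all genes tested. An unadjusted p under 0.05 was found for 12 members, all in this direction, against 14.7% of all genes in either direction. Of the 12547 genes tested, 993 had one in this direction. DESeq2 called 2 members and limma-voom 1.

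Cacna1g had 49.4 CPM in the lowest library of females on western diet, a median of 56.1 and 59.8 CPM in the highest, against 47.8, 50.1 and 55.1 CPM in females on chow. In males on western diet it had 46.3, 48.4 and 57.1 CPM, against 46.5, 54.3 and 60.1 CPM in males on chow. The ranges of the diets overlapped in both sexes, with western higher in 5 of 6 female libraries and lower in 7 of 8 male libraries than the mean of the chow libraries of the same genotype. Cacna1g averaged 55.5 ± 3.47 CPM in females on western diet (SD, n = 6) and 50.7 ± 2.52 CPM in females on chow (n = 8), with a log2 fold change of 0.11 ± 0.040 (adjusted p = 0.322, edgeR). It averaged 49.5 ± 3.53 CPM in males on western diet and 54.1 ± 3.76 CPM in males on chow (SD, n = 8 each), with a log2 fold change of -0.13 ± 0.038 (adjusted p = 0.175, edgeR). Neither sex alone passed the test, and the call is of the difference between them.

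By group, Cacna1g had 56.9, 59.8 and 56.8 CPM in female_alzheimer_western, against 49.8, 50.9, 48.2 and 50.3 CPM in female_alzheimer_chow, so that these libraries did not overlap. In female_wildtype_western it had 49.4, 55.4 and 54.7 CPM, against 49.8, 47.8, 55.1 and 53.7 CPM in female_wildtype_chow, with overlap. In male_alzheimer_western it had 47.2, 48.8, 57.1 and 51.9 CPM, against 55.1, 46.5, 53.5 and 54.1 CPM in male_alzheimer_chow, again with overlap. In male_wildtype_western it had 48.0, 47.3, 49.4 and 46.3 CPM, against 52.9, 54.5, 60.1 and 55.9 CPM in male_wildtype_chow, without overlap.

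The other T-type genes had like estimates without a call. The diet difference was larger in females than in males by 0.26 ± 0.072 for Cacna1h (adjusted p = 0.067) and by 0.25 ± 0.080 for Cacna1i (adjusted p = 0.114). Cacna1h averaged 221 ± 10.3 CPM in females on western diet and 206 ± 13.3 CPM in females on chow, and 204 ± 21.2 CPM in males on western diet against 227 ± 11.1 CPM in males on chow. Cacna1i averaged 99.0 ± 3.71 CPM in females on western diet and 91.4 ± 7.72 CPM in females on chow, and 87.2 ± 9.64 CPM in males on western diet against 96.6 ± 9.02 CPM in males on chow. The N-type gene Cacna1b, at 0.18 ± 0.055 (adjusted p = 0.101), and the sodium pore gene Scn1a, at 0.25 ± 0.079 (adjusted p = 0.109), had a smaller p than Cacna1i.

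All 17 pore genes had a positive estimate for this interaction, 9 of 9 for calcium with a median of 0.24 and 8 of 8 for sodium with a median of 0.19, against -0.0044 over all genes tested. The 18 auxiliary genes were split 9 to 9, with a median of -0.00041. In females 7 of the 9 calcium pore genes had a positive estimate for the western diet, with a median of 0.063, and in males all 9 had a negative one, with a median of -0.14. The sodium pore genes had a median of 0.086 in females and -0.10 in males. The gamma genes had a median interaction of -0.040 and the sodium beta genes of 0.027.

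**Figure D3:**
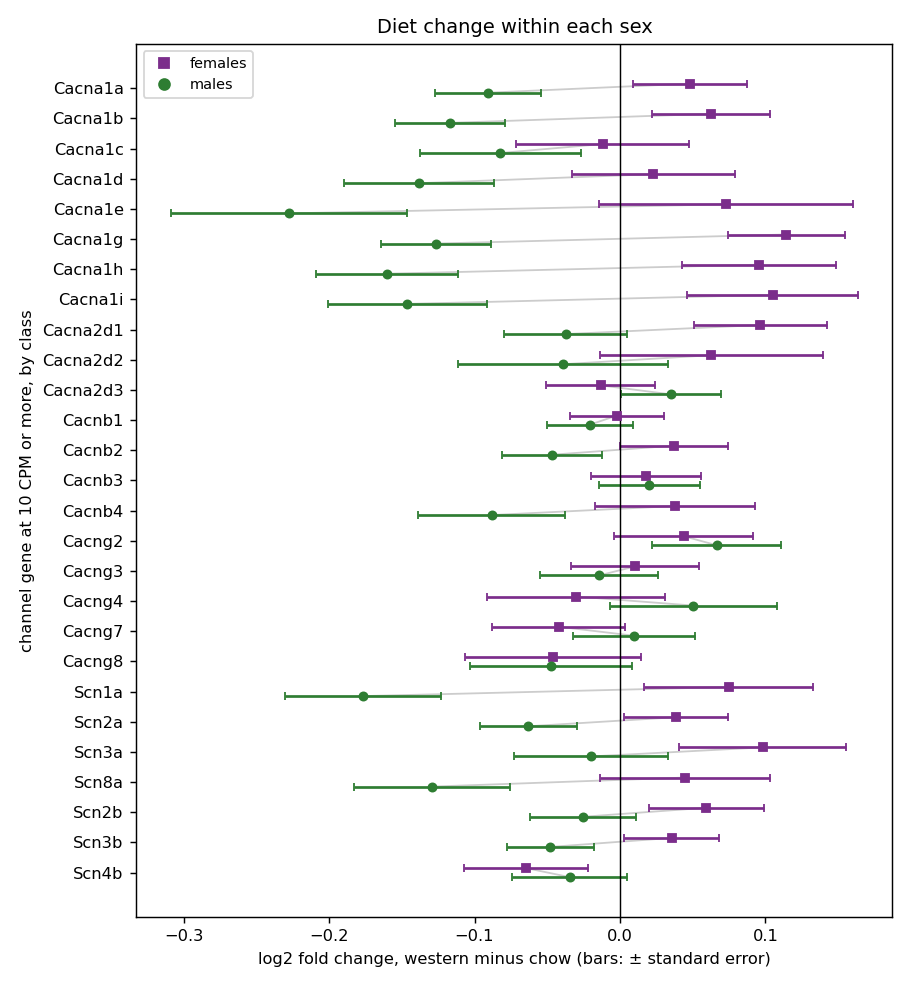
Log2 fold change western minus chow, with its standard error, in females (squares) and males (circles) for the channel genes at 10 CPM or more that are named here. For Cacna1g the female value is 0.11 and the male value -0.13, and the male values of the calcium pore genes shown all lie left of 0.

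**Figure D4:**
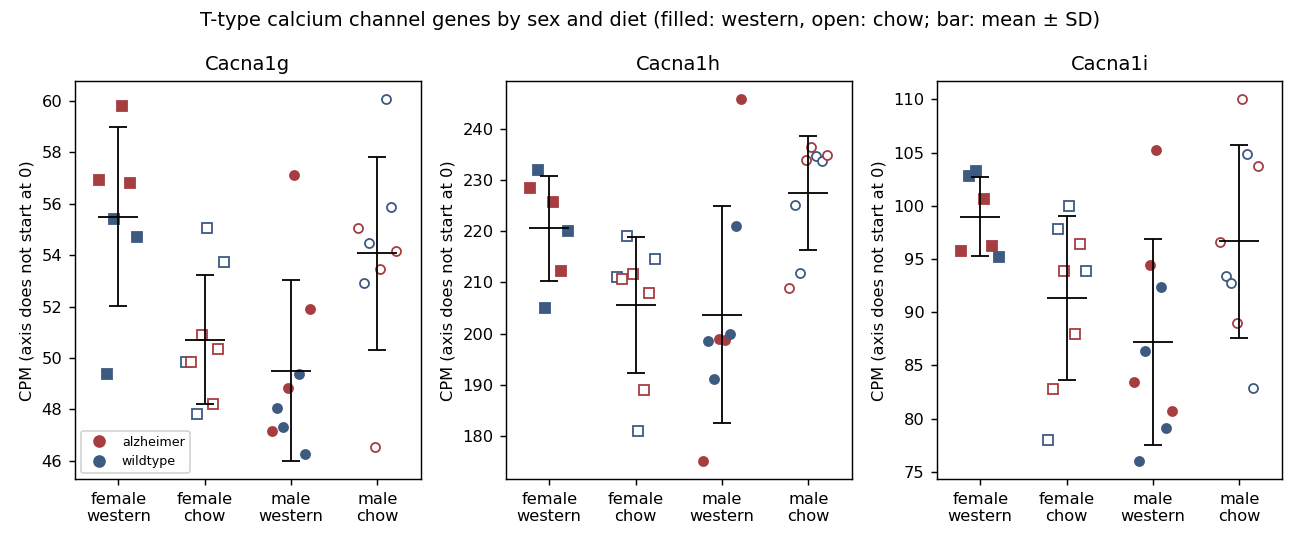
CPM of the T-type genes Cacna1g, Cacna1h and Cacna1i in each library by sex and diet, coloured by genotype, with mean and SD (y axes do not start at 0). The mean is higher on western than on chow diet in females and lower in males for each of the 3 genes.

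The Cacna1g call held without any 1 of the 30 libraries (adjusted p 0.00733 to 0.0487). It was lost in either cohort alone, at 0.22 in cohort 1 (adjusted p = 0.444) and 0.26 in cohort 2 (adjusted p = 0.191), and at 0.21 without the 3 libraries highest in choroid plexus markers (adjusted p = 0.0838).

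For diet itself no member was called, with western minus chow averaged over sex and genotype, against 0.00797% of all genes tested, and DESeq2 and limma-voom called none. Just 1 member had an unadjusted p under 0.05 in each of the 3 tools (5.55% of all genes in edgeR), which was Cacna1s in edgeR. Cacna1s had 0.318 CPM in the lowest western library, a median of 0.726 and 1.45 CPM in the highest, against 0.528, 1.15 and 2.35 CPM in chow libraries, with a log2 fold change of -0.49 ± 0.21 (adjusted p = 0.84, edgeR), lower in 11 of 14 libraries. Its ranges overlapped widely, at levels near 1 CPM. Next were Scn4b at -0.050 ± 0.029 and Cacng2 at 0.055 ± 0.033 (adjusted p = 0.93 for both). All 9 calcium pore genes had a negative estimate, with a median of -0.032, as had 6370 of the 12547 genes tested. In the contrast between cohorts all 9 were positive, also without a call.

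Within genotype no member was called for diet by any of the 3 tools, against 0% of all genes in wildtype and 0% in alzheimer. In alzheimer 1 member had an unadjusted p under 0.05 in edgeR, DESeq2 and limma-voom each, against 3.89% of all genes, and the smallest p were those of Cacna1g (0.084 ± 0.039), Cacng2 (0.091 ± 0.046) and Cacna2d1 (0.083 ± 0.044). In wildtype 3 members had one in edgeR and 4 in either other tool, against 5.2% of all genes, and the smallest p were those of Cacna1g (-0.096 ± 0.039), Scn1a (-0.12 ± 0.056) and Cacna1d (-0.11 ± 0.054). Within sex no member was called for diet by any of the 3 tools, against 0.183% of all genes in females and 0.128% in males. In females 2 members had an unadjusted p under 0.05 in each tool, against 9.56% of all genes, with the smallest p for Cacna1g, Cacna2d1 (0.096 ± 0.046) and Scn4a (0.24 ± 0.13). In males 10 members had one in edgeR, 10 in DESeq2 and 9 in limma-voom, against 11% of all genes in edgeR. All 10 estimates in edgeR were negative. Of the 12547 genes tested, 734 had an unadjusted p under 0.05 with a negative estimate in males. The smallest p in males were those of Cacna1g, Scn1a (-0.18 ± 0.054) and Cacna1h (-0.16 ± 0.049, adjusted p = 0.185). Without male_alzheimer_western replicate 28 Cacna1h was called in males (-0.21, adjusted p = 0.0182).

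For sex no member was called by any of the 3 tools, with female minus male averaged over genotype and diet, against 0.837% of all genes tested. An unadjusted p under 0.05 was found for 4 members in edgeR, 3 in DESeq2 and 4 in limma-voom, against 14.8% of all genes in edgeR. Scn4b had 46.4 CPM in the lowest female library, a median of 53.8 and 62.0 CPM in the highest, against 52.1, 57.5 and 62.0 CPM in male libraries, with a log2 fold change of -0.090 ± 0.029 (adjusted p = 0.13, edgeR), lower in 11 of 14 libraries. The ranges overlapped at the top, and the lowest values were in females. Between cohort 2 and cohort 1 no member was called by any of the 3 tools, against 0.0877% of all genes, and 7 had an unadjusted p under 0.05 in each, against 12.6% of all genes, with the smallest p for Cacna1g (0.086 ± 0.028), Cacnb1 (0.066 ± 0.022) and Cacng2 (0.091 ± 0.033).

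Genes that work with these channels were counted for genotype in lists of partners. Of 19 tested sodium channel partners and genes of the axon initial segment, where action potentials start, 4 rose and 2 fell in alzheimer, against 4.14% of all genes tested that rose and 3.89% that fell. Sptbn4, the spectrin that anchors the axon initial segment, averaged 352 ± 18.9 CPM in alzheimer and 330.3 ± 28.7 CPM in wildtype (SD, n = 15 each; log2 fold change 0.10 ± 0.030, adjusted p = 0.0258, edgeR). The adhesion molecules Nrcam and Cntn1 rose by 0.092 ± 0.020 and 0.13 ± 0.026 log2, and the matrix protein gene Tnr by 0.12 ± 0.038. The calmodulin genes Calm2 and Calm3, whose protein binds both channel families, fell by 0.063 and 0.072 log2.

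Of 28 tested calcium channel regulators and presynaptic tethers, 3 rose and 1 fell, where 8.03% of all genes tested were called in either direction, a share that also stands beside the counts of the next lists. Rims1, whose protein tethers calcium channels at the release site, averaged 256 ± 21.8 CPM in alzheimer and 216 ± 19.8 CPM in wildtype (SD, n = 15 each; log2 fold change 0.24 ± 0.035, adjusted p = 2.00e-05, edgeR). Erc2, another active zone scaffold, rose by 0.18 ± 0.034 log2 and Apba1 by 0.10 ± 0.029, and the calcium-binding regulator Cabp1 fell by 0.12. Of the 2 tested genes of the sodium leak channel complex, its pore gene Nalcn rose by 0.13 ± 0.023 log2 (adjusted p = 0.000269, edgeR). Among 17 genes of calcium release and store refilling, Ryr2, the calcium release channel of the endoplasmic reticulum, rose by 0.13 ± 0.035 log2 and Homer3 by 0.15 ± 0.046. Among 18 genes of calcium extrusion and buffering, the exchanger gene Slc24a2 rose by 0.10 ± 0.033 log2 and parvalbumin, Pvalb, fell by 0.16. Among 9 genes of the sodium pump, Fxyd7, a regulatory subunit, fell by 0.27, and among 16 calcium-activated kinases and activity-induced genes 0 passed the test, with a median log2 fold change of 0.012. The list medians ran from -0.035 for the sodium pump to 0.078 for the sodium leak channel complex, against 0.0020 over all genes tested. None of these partner lists had a called gene in the diet-by-sex interaction.

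Markers of several cell types moved with genotype, and the counts below stand against 3.89% of all genes tested that fell and 4.14% that rose. Of 4 CA1 markers, Wfs1 (-0.20) and Pou3f1 (-0.16) fell, and the summed list ran from 1019 to 1570 CPM in alzheimer and from 1102 to 1504 CPM in wildtype libraries. Of 5 astrocyte markers, Slc1a3, Aldoc and S100b fell, with sums of 3501 to 4127 CPM in alzheimer libraries and 3516 to 4166 CPM in wildtype ones. Of 3 endothelial markers, Cldn5 and Flt1 fell, with sums of 182 to 232 CPM in alzheimer libraries and 185 to 263 CPM in wildtype ones. Of 2 dentate granule cell markers C1ql2 fell (-0.27), of 6 interneuron markers Pvalb (-0.16), of 5 oligodendrocyte markers Mbp (-0.19), of 5 microglial markers Aif1 (-0.19) and of 4 mural and meningeal markers Rgs5 (-0.24). The other dentate marker was not called and lay on the higher side, and the median of the 2 was -0.061. C1ql2, at a median of 221 CPM over all libraries, made up most of the dentate sum. The summed lists ran from 238 to 312 CPM in alzheimer libraries and 249 to 353 CPM in wildtype ones for dentate granule cells, and from 412 to 479 CPM in alzheimer libraries and 409 to 511 CPM in wildtype ones for interneurons. They ran from 7388 to 11981 CPM in alzheimer libraries and 7411 to 13292 CPM in wildtype ones for oligodendrocytes, from 169 to 223 CPM in alzheimer libraries and 177 to 229.9 CPM in wildtype ones for microglia, and from 48.5 to 74.4 CPM in alzheimer libraries and 54.6 to 77.7 CPM in wildtype ones for mural and meningeal cells. Of 5 neuronal markers Syt1 rose (0.10), with sums of 4292 to 4908 CPM in alzheimer libraries and 4525 to 5135 CPM in wildtype ones. The median log2 fold change of all tested markers was -0.012 for neurons and 0.024 for interneurons, opposite in sign to Syt1 and Pvalb. It was -0.12 for CA1, -0.077 for astrocytes, -0.11 for endothelium and -0.073 for oligodendrocytes. For microglia it was -0.037, and for mural and meningeal cells -0.10. The median sums in alzheimer and wildtype libraries, in this order, were 4627 and 4575 CPM for neurons and 457 and 442 CPM for interneurons. They were 1188 and 1372 CPM for CA1, 257 and 312 CPM for dentate granule cells, and 3668 and 3939 CPM for astrocytes. For oligodendrocytes they were 10106 and 11366 CPM, and for endothelium 218 and 231 CPM. For microglia they were 202 and 208 CPM, and for mural and meningeal cells 59.3 and 65.7 CPM. For the markers of CA3, oligodendrocyte precursors, choroid plexus and ependyma, 0 passed the test. The part of these cell types in the channel results was not tested.

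For the diet-by-sex interaction, 1 of 5 microglial markers, P2ry12 (-0.46 ± 0.11, adjusted p = 0.0236, edgeR), and 1 of 3 endothelial markers, Cldn5 (-0.26 ± 0.055, adjusted p = 0.0107, edgeR), were called, in the direction opposite to Cacna1g, against 1.23% of all genes tested in either direction. The microglial sum ran from 198 to 223 CPM in females on western diet and 199 to 229.9 CPM in females on chow, and from 188 to 223 CPM in males on western diet and 169 to 214 CPM in males on chow. The endothelial sum ran from 182 to 249.7 CPM in females on western diet and 219 to 261 CPM in females on chow, and from 200.4 to 263 CPM in males on western diet and 185 to 232 CPM in males on chow. Their part in the Cacna1g result was not tested.

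Many of the channel genes are long, and genomic span moved with the estimates. Of the 35 members, 20 lay in the longest quintile of the genes tested by span in GRCr8, 6 in the next, 4 in the third, 5 in the second and 0 in the shortest. Among them Cacna2d3 spans 814 kb and Cacna1c 621 kb, while called genes span 262 kb for Cacnb4, 165 kb for Cacna1b, 112 kb for Scn3a, 68.0 kb for Cacna1g and 15.2 kb for Scn4b. Over all genes with a span, the median genotype estimate ran from -0.025 in the shortest quintile to 0.028 in the longest, and the median diet-by-sex estimate from -0.053 to 0.039. The rank correlation of the estimate with span was 0.20 for genotype and 0.24 for diet by sex across 12137 genes, and 0.46 and 0.36 across the 35 members, where genes share the same libraries and are not independent.

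The 20 members of the longest quintile had a median genotype estimate of 0.091, against 0.028 over all genes of that quintile. With an offset per library that levels the trend with span, 3 members remained called for genotype, among them Cacnb4 (0.11, adjusted p = 0.0426) and Scn4b (-0.10, adjusted p = 0.028), while Cacna1b had 0.063 (adjusted p = 0.121) and Scn3a 0.10 (adjusted p = 0.0873). With this offset 6 of 9 calcium pore genes and 8 of 8 sodium pore genes had a positive genotype estimate. Cacna1g had a diet-by-sex estimate of 0.20 (adjusted p = 0.0661), and all 9 calcium pore and all 8 sodium pore genes stayed positive. In cohort 2 alone the counts of positive estimates were 7 of 8 sodium pore genes for genotype, and 8 of 9 calcium and 7 of 8 sodium pore genes for diet by sex, and the median of the gamma genes for genotype was 0.054 in cohort 1 alone and -0.043 in cohort 2 alone.

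**Figure D5:**
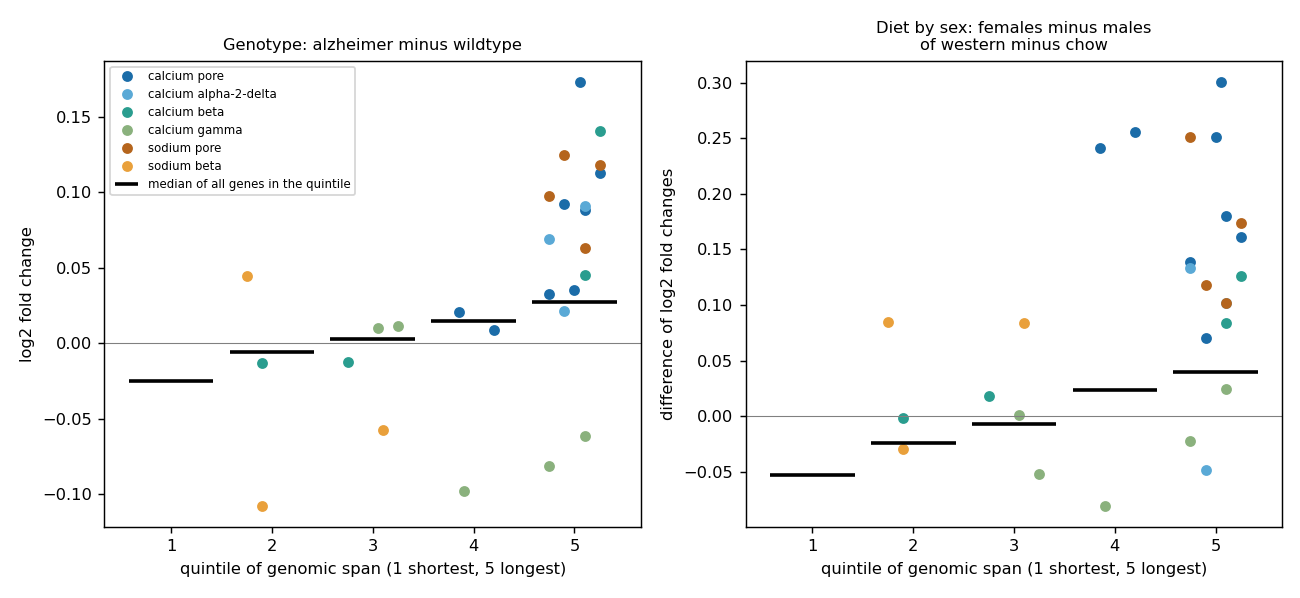
Estimates of the channel genes at 10 CPM or more that are named here (points, by class) for genotype and for diet by sex against the quintile of genomic span, with the median of all genes of each quintile (bars), and the position within a quintile has no meaning. For genotype the medians of all genes run from -0.025 to 0.028, and Scn4b, the lowest sodium beta gene shown, lies in the second quintile.

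Reads of overlapping or similar genes could be split by the counting, whose strand setting is not given in the sources used here. In GRCr8, 5 members overlap another protein-coding gene: Cacna1c overlaps Dcp1b, Cacna1h Tpsg1, Cacna2d3 Lrtm1, Cacnb1 Rpl19 and Cacnb3 Tuba1c. None of the 6 called members is among them, and Cacnb4 alone of the 6 overlaps a gene of another kind.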

How the data were processed

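The authors deposited 1 table of unscaled counts, with gene symbols down and libraries across: every entry is a whole number, and totals differ between columns. Trimming used cutadapt and alignment STAR 2.7.0a, per the submitters' processing notes. How reads were counted, with which strand setting, build and annotation, is not given in the sources used here.

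Counts were fitted with edgeR 4.0.16 (R 4.3.3), with 1 coefficient per group of sex, genotype and diet and 1 for cohort, over all 30 libraries. filterByExpr (minimum count 10, minimum total 15) kept 12547 genes out of 17455. TMM adjusted the library sizes, and 15 contrasts were tested with the two-sided quasi-likelihood F test. A gene is called at a Benjamini-Hochberg adjusted p under 0.05 over all genes tested. Errors of log2 fold changes are standard errors of the fit, and those of CPM values are SDs over libraries. The number of libraries in a direction sets each alzheimer, western or female library against the mean of its reference libraries with the same other 2 factors (wildtype, chow or male), and is a description. The script was tested on simulated data. Libraries of 1 group differed by more than sampling noise (chi-square per degree of freedom 2.94 to 10.6), so none was taken as the same library sequenced again. This cannot show whether libraries came from the same animal, since separate preparations of the same tissue can also differ by more than sampling noise.

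Members called in a contrast are named, and otherwise the 3 with the smallest p. Some items, members among them, are not reported here by name or value, while counts and medians cover all 35 members. The members, the partner and marker lists, the tests and the alternatives were chosen with earlier results of these data known. The alternatives were median-of-ratios factors, no filter, a stricter filter (1 CPM or more in 8 libraries), DESeq2 1.42.0, limma-voom with quality weights (limma 3.58.1), no cohort term, either cohort alone and leaving out each library. Leaving out the 3 libraries highest in choroid plexus markers and an offset along genomic span were chosen after seeing the data. Span came from RefSeq gene starts and ends in GRCr8, matched by symbol for 96.7% of genes tested, and includes introns.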

Additional observations from a re-analysis of the deposited data

Results flagged for a closer look

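Scn3a had 58.7 CPM in male_wildtype_western replicate 27, far above the 47.5 to 48.8 CPM of the other 3 libraries of that group. The 6 called genes were checked in 36 groups of 4 libraries, of which 1 had such a distant library; chance gives about 1 in 20.

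The diet difference of Cacna1g differed between the sexes, by a test of the difference itself, at 0.24 on the log2 scale (females minus males).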

How the results depend on the processing

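The limits are these. Changes of the channel genes are small, so a call turns on small shifts of the threshold, and with 3 or 4 libraries per group the strata are less precise than the pooled comparisons. Low genes such as Cacna1s and Scn7a rest on few counts. Cohort 1 alone has 1 library in each female western group, and the contrast between cohorts has no value in either cohort alone or without the cohort term.

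With no filter 8 members were called for genotype, 3 for diet by sex and 1 for genotype in females. Cohort 1 alone gave 0 for genotype, 0 for diet by sex, 0 for genotype on western diet and 1 for sex, and cohort 2 alone 7 for genotype, 0 for diet by sex, 0 for genotype on western diet and 1 for genotype in males. Without the 3 libraries highest in choroid plexus markers the counts were 2 for genotype, 0 for diet by sex, 0 for genotype on western diet and 1 for genotype in females, and with the span offset 3 for genotype and 0 for diet by sex and for genotype on western diet. DESeq2 called 2 for diet by sex, limma-voom 2 for genotype on western diet and 1 for genotype in females, and the fit without the cohort term 0 for genotype on western diet. For the fits with fewer libraries the number of libraries also fell; for the others the cause was not tested. Signs were compared for the members called in each contrast or, where none was called, the 3 with the smallest p, and not for the other members. Among these, 3 uncalled estimates changed sign in cohort 1 alone, to 0.21 for Cacna1s for diet, -0.013 for Cacng2 for diet and -0.041 for Cacng2 for diet in alzheimer.

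With 1 library left out, 3 to 8 members were called for genotype, with 8 without replicate 1, 7, 8 or 13 and 3 without replicate 5, 6, 9, 11, 15, 17, 19, 22, 23, 24, 25, 28 or 29. For diet by sex the count was 1 to 3, with 2 without replicate 3, 13, 17, 27 or 28 and 3 without replicate 29. For genotype on western diet it was 0 to 2, with 2 without replicate 21 and 0 without replicate 2, 4, 5, 11, 13, 15, 16, 17, 18, 19, 20, 22, 23, 25, 26, 27 or 28. For genotype in females it was 0 to 2, with 2 without replicate 12 and 1 without replicate 14, 20 or 30. For genotype in males (1 without replicate 7), diet in males (1 without replicate 28) and sex (1 without replicate 5) it was 0 to 1, and for each other contrast 0 in every case. No paired analysis was run, because the labels give no pairing of libraries between groups.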
